A study of Homo sapiens with 2 samples.

Results

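MALAT1 and NEAT1 are long non-coding RNAs that stay in the nucleus, and their genes lie next to each other on the long arm of chromosome 11. Their members were taken from the deposited transcript annotation as every row whose gene name, split at commas, is MALAT1 or NEAT1. That gave 22 of 99493 transcript rows, 17 for MALAT1 and 5 for NEAT1, in 3 of 57110 gene entries. MALAT1 holds 2 entries, ENSG00000251562 and the short element ENSG00000278217 inside it, and NEAT1 holds ENSG00000245532. No member shares an entry with another gene.

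The counts come from 1 nanopore PromethION library of single cells, made to benchmark Isosceles, a package that quantifies transcripts from long reads. Its cells are a pool in equal parts of IGROV1, SK-OV-3 and COV504, established human ovarian cancer lines that were untreated as far as the labels say. A second library of the same pool, prepared by the standard 10x Genomics protocol and read on an Illumina instrument, was used here for its barcode list alone. Every group below is a set of cell barcodes of that 1 library, so no test between groups was possible, and every 95% interval covers counting error only. Whether repeated reads of 1 molecule were collapsed is not stated, so the intervals, and every statement that a difference is beyond counting error, take each count as a separate molecule and may be too narrow.

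MALAT1 is a very abundant RNA concentrated at nuclear speckles, bodies rich in splicing factors. NEAT1 is the scaffold of paraspeckles, nuclear bodies built from its long form together with RNA-binding proteins such as SFPQ and NONO. NEAT1 also has a short form that ends in a normal poly(A) tail. The 3′ end of MALAT1 and that of long NEAT1 are made in another way: RNase P cuts before a tRNA-like structure, the tRNA-like part is released as a small RNA, and the new end is held in a triple helix between U-rich stretches and a terminal A-rich stretch. Both RNAs are therefore known for ends that carry no added poly(A) tail, with A-rich stretches written in the genome.

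These ends are shown because they hold a stretch that few annotated transcripts have near their end. The first pair of sequences is the 59 bases of each RNA just before the tRNA-like small RNA, read 5′ to 3′ on the plus strand of GRCh38 from GENCODE release 29, at chr11:65506058-65506116 for MALAT1 and chr11:65445482-65445540 for NEAT1. Capitals mark the stretches that a search found in both.
MALAT1 before the small RNA: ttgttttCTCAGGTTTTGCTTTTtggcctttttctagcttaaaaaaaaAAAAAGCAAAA
NEAT1 before the small RNA: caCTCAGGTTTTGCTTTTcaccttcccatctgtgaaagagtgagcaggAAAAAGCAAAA
The longest stretch in common has 16 bases and the shared last stretch has 11 bases. Of 168622 GENCODE transcripts, 2 hold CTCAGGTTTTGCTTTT in their last 500 bases, namely MALAT1 and NEAT1, and 0 hold its reverse complement there.

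The annotated tRNA-like small RNAs follow directly, at chr11:65506117-65506173 for MALAT1 and chr11:65445541-65445598 for NEAT1. They are printed whole, without capitals, since they are compared over their full length.
MALAT1 tRNA-like: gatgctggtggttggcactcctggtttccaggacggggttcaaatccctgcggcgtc
NEAT1 tRNA-like: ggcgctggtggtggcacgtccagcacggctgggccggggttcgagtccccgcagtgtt
In a global alignment, 40 of 59 columns were identical (67.8%). Neither small RNA is a row of its own among the members. The MALAT1 one lies inside the annotated single-exon transcript, and the NEAT1 one begins just after the annotated end of the long transcript.

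The other sequences shown are places where a poly(A) tail or an internal run of A could lie. Capitals mark the signal AATAAA or the longest run of A.
MALAT1 annotated end, chr11:65506420-65506469: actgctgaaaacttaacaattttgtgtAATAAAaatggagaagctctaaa
NEAT1 short form end, chr11:65426474-65426513: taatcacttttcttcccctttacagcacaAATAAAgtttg
NEAT1 longest A run, chr11:65440823-65440874: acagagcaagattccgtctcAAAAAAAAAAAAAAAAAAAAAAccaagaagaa
MALAT1 holds 2 runs of at least 8 A, and the longer has 13 A and stops 359 bases before the annotated end. Long NEAT1 holds 6 such runs, and the longest has 22 A and stops 4676 bases before the annotated end. Among the last 500 bases of the 168622 transcripts, 7.23% hold at least 8 A in a row (6.43% hold at least 8 T), 1.93% hold at least 13 A (1.26% at least 13 T), and 39.1% hold AATAAA (24.0% TTTATT). The last 500 bases of MALAT1 hold the run and the signal, and those of long NEAT1 hold none of these. A match is a description of the letters only, and the matrix does not record where along an RNA a read began or ended.

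**Figure D1:**
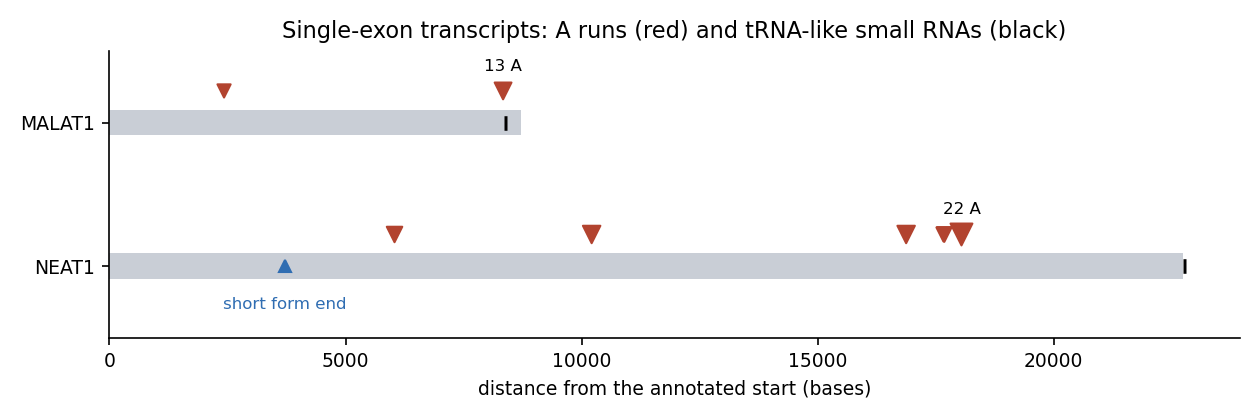
Map of the single-exon MALAT1 and NEAT1 transcripts to scale, by distance in bases from the annotated start. Red triangles are runs of at least 8 A, larger for longer runs, black marks are the annotated tRNA-like small RNAs and the blue triangle is the annotated end of a short NEAT1 form; the longest runs have 13 A in MALAT1 and 22 A in NEAT1.

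Nearly all counts of both genes were given to 1 transcript each. For MALAT1 it was ENST00000534336, a single exon of 8708 bases at chr11:65497762-65506469, with 99.8% of 204962 counts. The share was 99.8% (95% Clopper-Pearson interval 99.7% to 99.8%) in the ERBB2-high line described next, 99.8% (99.8% to 99.9%) in the RARRES2-high line and 99.8% (99.8% to 99.9%) in the FOLR1-high line. The 15 spliced MALAT1 rows together held 420 counts (0.205%), of which ENST00000619449 had 330 spread in fractions over 2114 barcodes and 8 as whole entries. Of the 17 MALAT1 rows, 5 were at 0 counts, the single-exon ENSG00000278217 element and 4 of the spliced rows. Only 529 counts of ENST00000534336 (0.259%) stood in matrix entries that were whole within 1e-06. The entry was not whole in 2124 of the 2258 barcodes with this transcript, so part of the MALAT1 count was shared by estimation with another row there.

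For NEAT1 the leading transcript was ENST00000501122, a single exon of 22743 bases at chr11:65422798-65445540, with 99.7% of 16267 counts. Its share was 99.7%, 99.5% and 99.8% in the ERBB2-high, RARRES2-high and FOLR1-high lines. The 4 NEAT1 rows that the table pairs with spliced transcripts held 0.344% of counts, nearly all of it in ENST00000499732 with 55.5 counts. The positions of these 4 rows differ from those of the paired GENCODE transcripts, so their exon structure is not certain. No other NEAT1 row is paired with a single-exon transcript, and ENST00000501122 spans the annotated short-form end. Short and long NEAT1 therefore cannot be told apart in these counts. The intervals of the leading share overlapped between the lines for each gene. Among minor rows, the spliced MALAT1 transcript ENST00000508832 took 0.0477% (0.0358% to 0.0629%) of MALAT1 counts in ERBB2-high, 0.00632% (0.000738% to 0.0220%) in RARRES2-high and 0.0145% (0.00521% to 0.0309%) in FOLR1-high barcodes, with the ERBB2-high interval above the others. Only 12 of its 67.0 counts were whole entries, and its counts lay over 1083 barcodes, so these intervals rest mostly on estimated shares.

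Sets of barcodes stand for the lines. A barcode with at least 1000 counts was assigned where 1 of 3 marker sets held at least 75% of the counts of all 10 marker genes: ERBB2, NNMT, TSPAN1 and DHRS2; RARRES2 and TMEM100; or FOLR1, CLDN3, DEFB1 and CXCL14. That gave 648 ERBB2-high, 472 RARRES2-high and 765 FOLR1-high barcodes, while 244 had no line and 333 had under 1000 counts. GRB7, MIEN1, STARD3 and PGAP3, neighbours of ERBB2 in the amplified region that SK-OV-3 is known for, were highest in the ERBB2-high set, at 528 CPM (counts scaled to a total of 1000000) for MIEN1 against 143 and 103. GRB7 stood closer between sets, at 56.4 CPM against 2.67 in RARRES2-high and 28.8 in FOLR1-high. By these neighbours the ERBB2-high set is SK-OV-3-like. CDKN2A had 1 count there, 0 in the RARRES2-high and 88 in the FOLR1-high set, so it does not separate ERBB2-high from RARRES2-high. Which of IGROV1 and COV504 each other set is was not settled here. The leukocyte genes PTPRC, CD3E and LYZ had 0 or 1 count in every set, and the fibroblast gene COL1A1 had 95.6, 23.5 and 3.32 CPM in the ERBB2-high, RARRES2-high and FOLR1-high sets.

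The library held 13052893 counts over 2462 barcodes, with a median of 4914.5 and a range of 1 to 25670 per barcode. All 2462 barcodes were also in the Illumina list. Mitochondrially encoded genes took 2.93%, 3.11% and 7.07% of counts in the ERBB2-high, RARRES2-high and FOLR1-high sets, whose median depths were 4953, 6261.5 and 5289 counts. Some genes marking 1 line were also seen in barcodes of another: after thinning every barcode to 1000 counts, GRB7 was seen in 2.61% of FOLR1-high against 4.94% of ERBB2-high barcodes, and MOXD1 in 1.23% of ERBB2-high against 6.27% of FOLR1-high barcodes. Neither was seen in RARRES2-high barcodes. Others were seen in 1 line alone: RGCC in 5.51% of RARRES2-high, and KRT24 and HSD17B2 in 6.93% and 4.05% of FOLR1-high barcodes. The level of RNA free in the droplets was not measured.

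MALAT1 was the RNA with the most counts of any gene in the ERBB2-high line and stood about 3 times higher there than in the other lines. It made up 3.15% of the ERBB2-high counts, 0.975% of the RARRES2-high and 0.937% of the FOLR1-high counts. As CPM these are 31480 (95% Poisson interval 31293 to 31668), 9753 (9648 to 9859) and 9367 (9278 to 9457). By count it ranked 1, 3 and 8 among all genes of these lines. ERBB2-high exceeded RARRES2-high 3.23-fold (3.19 to 3.27, log2 1.69) and FOLR1-high 3.36-fold (3.32 to 3.40, log2 1.75). RARRES2-high and FOLR1-high were 1.04-fold apart (1.03 to 1.06, log2 0.06), and this order depends on the measure: as a share of non-mitochondrial counts they stood at 10067 and 10080 CPM, and the median barcode was lower in RARRES2-high (8686 against 8809 CPM). Their levels are therefore not told apart here.

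NEAT1 followed the same first place with a clearer order of the other lines. It stood at 2481 CPM (2429 to 2535) in ERBB2-high, 872 CPM (841 to 904) in RARRES2-high and 635 CPM (612 to 658) in FOLR1-high barcodes, ranking 44, 168 and 195 by count. ERBB2-high exceeded RARRES2-high 2.84-fold (2.73 to 2.97, log2 1.51) and FOLR1-high 3.91-fold (3.75 to 4.08, log2 1.97). RARRES2-high exceeded FOLR1-high 1.37-fold (1.30 to 1.45, log2 0.46).

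Both members thus passed a 2-fold limit in ERBB2-high against either other line, and neither did between the other lines. Of all genes with at least 50 counts in the pair, 21.2% of 9131 passed it upward in ERBB2-high against RARRES2-high, 26.0% of 9237 against FOLR1-high, and 21.8% of 9095 in RARRES2-high against FOLR1-high. Downward, 13.0%, 9.36% and 12.9% passed it. The members' differences were not extreme by that measure: 8.30% of genes had a larger log2 ratio than MALAT1 and 10.7% than NEAT1 against RARRES2-high, and 9.86% and 8.20% against FOLR1-high. The median gene was 0.21 and 0.45 higher on the log2 scale in these comparisons, which share the ERBB2-high barcodes.

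The ratio of MALAT1 to NEAT1 counts was 12.7 (12.4 to 12.97) in ERBB2-high, 11.2 (10.8 to 11.6) in RARRES2-high and 14.8 (14.2 to 15.3) in FOLR1-high barcodes. Per kilobase of the annotated single-exon transcripts, MALAT1 stood 33.1, 29.2 and 38.5 times above NEAT1. The division by length assumes that counts grow with length, which was not tested for long reads.

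Single barcodes varied widely around these levels, and the lines overlapped. MALAT1 in ERBB2-high barcodes ran from 0 to 130763 CPM with a median of 28941 CPM, and 90% of barcodes lay between 4562 and 71118 CPM. In RARRES2-high barcodes the median was 8686 CPM, from 192 to 24986 CPM for the same span, and in FOLR1-high barcodes 8809 CPM, from 947 to 23687 CPM. The low end was longest in the RARRES2-high line. NEAT1 medians were 2080, 617 and 443 CPM, with highest barcodes at 16693, 14655 and 10035 CPM.

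**Figure D2:**
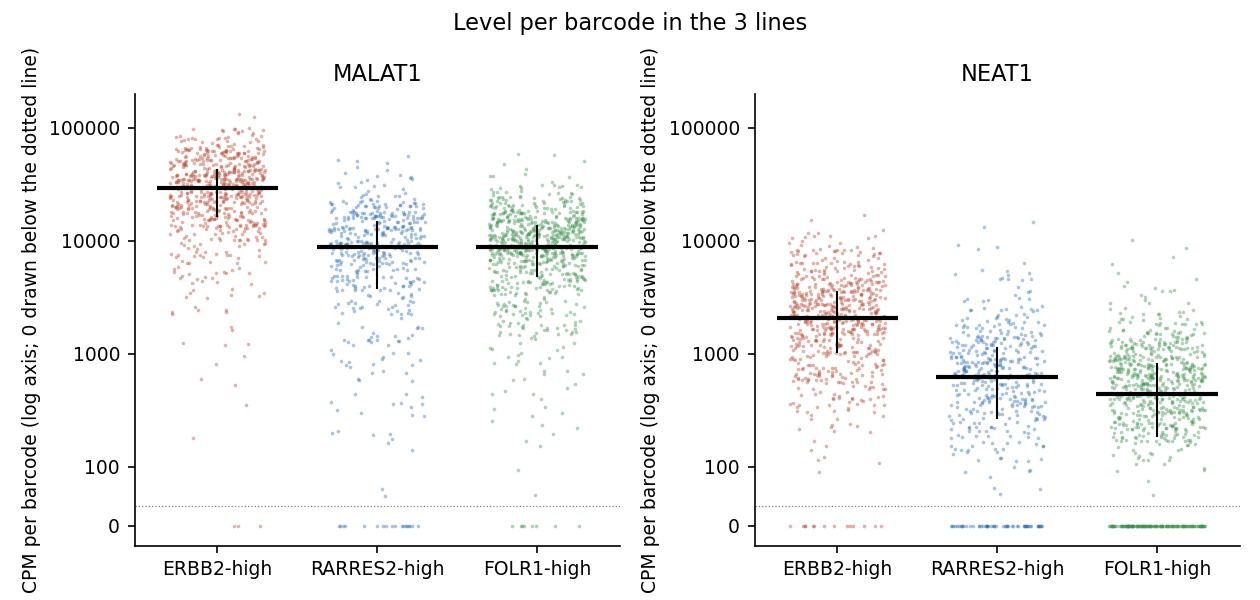
CPM of MALAT1 and NEAT1 per barcode (log axis, barcodes at 0 drawn below the dotted line) in 648 ERBB2-high, 472 RARRES2-high and 765 FOLR1-high barcodes. Each point is a barcode, the thick bar is the median and the thin bar the middle 50% of barcodes; the ERBB2-high median of MALAT1 is 28941 CPM against 8686 and 8809 CPM, with overlapping points.

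The spread of both RNAs was wider than counting gives. With every barcode thinned to 2000 counts (30 to 42 shallower barcodes per line left out), the coefficient of variation of MALAT1 was 0.648, 0.816 and 0.714 in ERBB2-high, RARRES2-high and FOLR1-high barcodes, against 0.124, 0.218 and 0.223 for Poisson counting at the same mean. For NEAT1 it was 0.932, 1.56 and 1.39 against 0.434, 0.730 and 0.907. Relative to its mean, each RNA varied most in the RARRES2-high line.

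Both RNAs were seen most often in ERBB2-high barcodes. After thinning to 1000 counts, MALAT1 was seen in 99.1%, 90.04% and 94.6% of ERBB2-high, RARRES2-high and FOLR1-high barcodes (99.5%, 96.2% and 99.0% unthinned). NEAT1 was seen in 79.8%, 49.4% and 38.6% (97.8%, 88.1% and 81.2% unthinned). For MALAT1 the RARRES2-high line had the lower share with a count, although its pooled CPM was not below that of FOLR1-high.

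A small set of deep barcodes had almost no MALAT1. Among barcodes of at least 3000 counts, MALAT1 took under 10 of 10000 non-mitochondrial counts in 5 of 540 ERBB2-high (0.926%, 95% Clopper-Pearson interval 0.301% to 2.15%), 32 of 407 RARRES2-high (7.86%, 5.44% to 10.9%) and 31 of 661 FOLR1-high barcodes (4.69%, 3.21% to 6.59%). The median depth of these RARRES2-high barcodes was 9781.5 counts against 6942 for all RARRES2-high barcodes of that depth class, and that of the FOLR1-high ones was 6782 against 5699. The 5 ERBB2-high ones were slightly shallower, at 5065 against 5406. Among all barcodes of a line, those with 0 MALAT1 counts numbered 3, 18 and 8, of which 0, 2 and 4 had at least 3000 counts.

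Of 20 paraspeckle protein genes measured as entries of their own, 0 were at least 2-fold higher or lower in ERBB2-high against either other line, with median log2 ratios of 0.39 and 0.35 beside 0.21 and 0.45 for all genes. Over all genes, 21.2% and 26.0% were higher and 13.0% and 9.36% lower by that limit. NONO, a core paraspeckle protein that binds NEAT1, stood at 342, 209 and 243 CPM in ERBB2-high, RARRES2-high and FOLR1-high, and HNRNPK, needed for long NEAT1 to form, at 379, 296 and 265 CPM. HNRNPA1, an abundant splicing regulator also found in paraspeckles, had its highest level in FOLR1-high at 884 CPM against 501 in ERBB2-high and 331 in RARRES2-high. HNRNPR, another RNA-binding protein of the list, stood at 210, 197 and 139 CPM.

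Among 19 nuclear speckle protein genes, 1 was at least 2-fold higher in ERBB2-high than in RARRES2-high and 2 than in FOLR1-high, and 0 were lower, beside all-gene shares of 21.2% and 26.0% higher and 13.0% and 9.36% lower. These were SRSF6, a splicing factor (80.5 CPM against 35.9 and 34.6), and BCLAF1, a nuclear RNA-processing protein (216 against 91.5 CPM in FOLR1-high). The splicing factors SRSF3 and SRSF7 stood at 500 and 420 CPM in ERBB2-high, 450 and 313 CPM in RARRES2-high, and 400 and 263 CPM in FOLR1-high. The list's medians were 0.34 and 0.44 on the log2 scale, beside 0.21 and 0.45 for all genes.

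The 11 measured genes of the RNase P and tRNA end-processing list moved both ways. Against RARRES2-high, RPP38, an RNase P subunit, and TRNT1, which adds CCA to tRNA ends and can act on the MALAT1 small RNA, were higher in ERBB2-high (50.8 against 20.5 CPM and 38.9 against 15.7 CPM). The RNase P subunits POP7, RPP30 and RPP25 were lower (79.0 against 205, 20.6 against 44.8 and 5.81 against 46.0 CPM). Against FOLR1-high, 2 of 11 were higher, TRNT1 among them, and 1 was lower, the tRNA 3′ nuclease ELAC2 at 14.5 against 33.9 CPM. Over all genes, 21.2% were higher and 13.0% lower against RARRES2-high and 26.0% and 9.36% against FOLR1-high, so counts this small in a list of 11 say little about it.

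Other long non-coding RNAs also split. Of 15 tested against RARRES2-high, 5 were at least 2-fold higher in ERBB2-high, among them EPB41L4A-AS1 (98.2 against 21.4 CPM), SNHG8 (223 against 72.8 CPM) and TUG1 (61.0 against 23.2 CPM), and MIR4435-2HG was lower (71.8 against 198 CPM). Of 16 tested against FOLR1-high, 4 were higher, including NORAD (226 against 109 CPM), a cytoplasmic RNA that binds Pumilio proteins, and 6 were lower, including GAS5 (103 against 660 CPM) and DANCR (29.6 against 338 CPM). Over all genes 21.2% and 26.0% were higher and 13.0% and 9.36% lower by that limit, so the list held genes on both sides.

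Genes near MALAT1 and NEAT1 on chromosome 11 were compared by the same limit. Of 12 listed neighbours, 9 had enough counts against RARRES2-high and 6 against FOLR1-high. In the first comparison 0 were at least 2-fold higher and 1 was lower, and in the second 1 was higher, FAM89B at 53.7 against 18.2 CPM, and 0 were lower. The shares over all genes were 21.2% higher and 13.0% lower in the first comparison and 26.0% and 9.36% in the second.

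Both RNAs took a larger share in barcodes rich in mitochondrial counts. Because such counts take a large part of the total there, shares below are of the counts outside mitochondrially encoded genes. MALAT1 took 1.93% in 1436 barcodes with under 5% mitochondrial counts, 1.08% in 774 with 5 to 10% and 1.11% in 89 with 10 to 20%. It took 11.4% (10.7% to 12.04%) in 14 barcodes with 20 to 50% and 9.84% (9.02% to 10.7%) in 149 barcodes with 50% and over. NEAT1 took 0.153%, 0.0853% and 0.0921% in the first 3 classes, then 1.39% (1.16% to 1.66%) and 0.719% (0.501% to 0.999%). Both RNAs stepped up between the class under 20% and the class above it.

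Taking all 163 barcodes with at least 20% mitochondrial counts against the other 2299, MALAT1 was 6.60-fold higher (6.27 to 6.95, log2 2.72) and NEAT1 8.90-fold higher (7.56 to 10.4, log2 3.15). As shares of all counts the log2 ratios were 1.06 and 1.49. The MALAT1 value was below both MALAT1 ratios of ERBB2-high to the other lines. The NEAT1 value was below that over FOLR1-high (1.97) and close to that over RARRES2-high (1.51, 1.45 to 1.57). The background is 188 genes outside the mitochondrial genome for which at least 10 counts would be there at the rate of the other barcodes. Of these, 4 (2.13%) were at least 2-fold higher, and the 2 members are among the 4. NEAT1 ranked 1 and MALAT1 ranked 2 among these 188 genes, followed by SPP1, the secreted protein osteopontin, at 2.54 on the log2 scale against 3.15 and 2.72 for the members. The median of the 188 genes was -1.07 on that scale. The limit keeps abundant genes only. No listed nuclear-retained mRNA, nuclear speckle or paraspeckle protein gene or other long non-coding RNA with its own entry reaches it. The most abundant of these, HNRNPA1, had 7581 counts in the library. The ranks and the median therefore do not set the members beside such genes.

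Few counts and few barcodes carry this contrast. The 163 barcodes held 13689 non-mitochondrial counts, with 1481 for MALAT1 and 158 for NEAT1, and their median depth was 146 counts. MALAT1 had 0 counts in 123 of them and NEAT1 in 140. The median barcode therefore went the other way, at 0% for both RNAs against 1.27% for MALAT1 and 0.0744% for NEAT1 in the other barcodes. The barcodes with enough depth to read singly had the same direction: in all 6 with at least 1000 counts MALAT1 took between 7.40% and 11.1%, and NEAT1 between 0.306% and 2.30%. Of these 6 barcodes, 4 were FOLR1-high, 1 was RARRES2-high and the last had no line. The barcode that raised the pooled MALAT1 share most held 220 MALAT1 counts of 435 outside the mitochondrial genome, and without it the share was 9.51% in place of 10.8%. Without the barcode that raised NEAT1 most, the NEAT1 share was 1.015% in place of 1.15%.

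Some of the gene lists also differed in the same barcodes. Per 10000 counts outside mitochondrial genes and the members, the 19 nuclear speckle protein genes summed to 87.1 (71.3 to 105) against 34.9 in the other barcodes. The 12 listed mRNAs known to be held in the nucleus in part, among them AHNAK, DDX5, MACF1 and NKTR, summed to 47.3 (35.8 to 61.3) against 10.8, and the 19 other long non-coding RNAs to 43.2 (32.2 to 56.6) against 19.1. The 20 paraspeckle protein genes stood at 32.4 (23.0 to 44.2) against 26.2 and the 20 mitotic genes at 36.5 (26.5 to 49.0) against 29.9, and both of the lower values lie inside these intervals. The 12 abundant cytoplasmic mRNAs, such as FTH1, RPS2, RPLP1 and TMSB10, summed to 419 (383 to 457) against 696.

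Below 20%, the lines were read separately. Between under 5% and 5 to 10% mitochondrial counts, MALAT1 went from 3.24% to 3.34% in ERBB2-high, from 0.995% to 1.10% in RARRES2-high and from 0.965% to 1.00% in FOLR1-high barcodes. In ERBB2-high this direction rests on 1 barcode: without the barcode with the most MALAT1 counts in each class, the shares were 3.22% and 2.97%, and the median barcode went from 3.04% to 1.85%. Left out in the same way, the RARRES2-high shares were 0.985% and 1.00%, with medians of 0.894% and 0.910%, so most of that step also rests on 1 barcode. The FOLR1-high shares were 0.915% and 0.996%, with medians of 0.821% and 0.955%. NEAT1 went from 0.250% to 0.429% in ERBB2-high (31 barcodes in the upper class), from 0.0850% to 0.136% in RARRES2-high (55 barcodes) and from 0.0673% to 0.0671% in FOLR1-high barcodes. NEAT1 was thus higher with a higher mitochondrial share in ERBB2-high and RARRES2-high barcodes, by more than counting error, and level in FOLR1-high ones. The upper class was also shallower in the first pair of lines, with median depths of 3131 against 5043.5 counts in ERBB2-high and 4039 against 6619 in RARRES2-high, and the part of depth was not tested. The class of 10 to 20% held 3 ERBB2-high and 2 RARRES2-high barcodes, too few to read, and in its 71 FOLR1-high barcodes MALAT1 took 1.04% and NEAT1 0.0651%.

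Across barcodes, Spearman's rho of the MALAT1 share with the mitochondrial share was 0.01 in 648 ERBB2-high, 0.24 in 472 RARRES2-high and 0.08 in 765 FOLR1-high barcodes. For NEAT1 it was 0.24, 0.32 and 0.09. Over all 2129 barcodes of at least 1000 counts the sign turned, to -0.19 and -0.18. FOLR1-high barcodes have the most mitochondrial counts and the least NEAT1, and the part of the lines in this turn was not tested. Barcodes share 1 library and differ in depth, so these values describe this library. The NEAT1 value over all barcodes was -0.07 after thinning to 1000 counts.

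The relation to depth was read in the same way. MALAT1 took 3.56% of non-mitochondrial counts in 84 barcodes under 100 counts, 3.05% in 249 with 100 to under 1000, 2.15% in 326 with 1000 to under 3000, 1.95% in 931 with 3000 to under 6000 and 1.43% in 872 with 6000 and over. NEAT1 had 0 counts in the shallowest class, which allows a share of up to 0.248% (3 counts), and 0.181%, 0.208%, 0.156% and 0.111% in the next ones. Under 1000 counts, MALAT1 was 1.87-fold higher than in deeper barcodes (1.79 to 1.94) and NEAT1 1.37-fold (1.15 to 1.61). Among barcodes under 20% mitochondrial counts these became 1.30-fold (1.24 to 1.37) and 0.888-fold (0.709 to 1.10).

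The pooled rise at low depth is not what the typical shallow barcode shows. MALAT1 had 0 counts in 169 of the 333 barcodes under 1000 counts and NEAT1 in 272, and 5 of these barcodes held mitochondrial counts only. The median MALAT1 share was 0.0517% under 1000 counts and 1.27% above, the opposite order to the pooled shares. Within lines the pooled MALAT1 share fell from the class of 1000 to under 3000 counts to the class of 6000 and over, from 3.52% to 3.17% in ERBB2-high, from 1.11% to 0.985% in RARRES2-high and from 1.35% to 0.897% in FOLR1-high barcodes. The median barcode went the other way in ERBB2-high (2.60% to 3.09%) and RARRES2-high (0.419% to 0.948%) and fell in FOLR1-high (0.964% to 0.857%). The pooled NEAT1 share fell from 0.363% to 0.221% in ERBB2-high, from 0.121% to 0.0823% in RARRES2-high and from 0.0841% to 0.0715% in FOLR1-high barcodes between the same classes. In FOLR1-high the class of 3000 to under 6000 counts was lowest, at 0.0610%, so the fall was not steady. The median NEAT1 share fell in ERBB2-high (0.275% to 0.183%). It rose in RARRES2-high (0.0406% to 0.0568%) and FOLR1-high (0.0477% to 0.0536%). Spearman's rho with depth was -0.00124, 0.02 and -0.19 for MALAT1 and -0.18, -0.02 and 0.06 for NEAT1 in ERBB2-high, RARRES2-high and FOLR1-high barcodes.

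**Figure D3:**
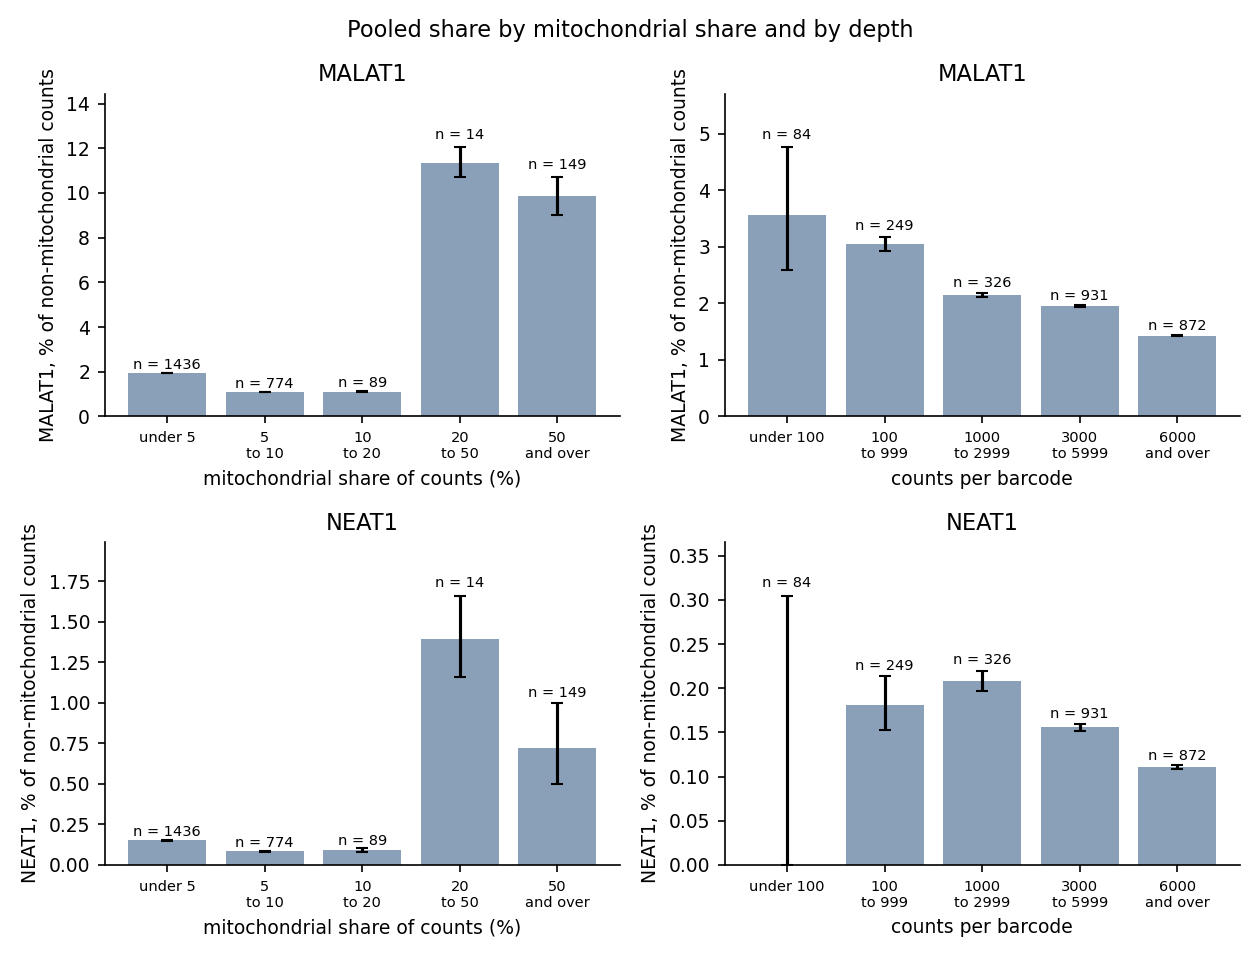
Share of MALAT1 (top) and NEAT1 (bottom) in the counts outside mitochondrial genes, in percent, pooled over the barcodes of each class of mitochondrial share (left) and of depth (right), with 95% Clopper-Pearson intervals and the number of barcodes. MALAT1 stands at 11.4% and 9.84% in the classes of at least 20% mitochondrial counts and at 1.93% or less below.

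Within every line, MALAT1 and NEAT1 went together more closely than either did with any other gene compared. Likeness was taken as Pearson's r of log2(count per 10000 non-mitochondrial counts + 1) across barcodes of at least 2000 counts, computed in each line and averaged, for 1246 genes with a mean of at least 0.5 counts per barcode in every line. NEAT1 ranked 1 for MALAT1, with r = 0.51 in 606 ERBB2-high, 0.51 in 442 RARRES2-high and 0.44 in 733 FOLR1-high barcodes, and MALAT1 ranked 1 for NEAT1, in each line taken alone as well as on average. The mean was 0.49, and 0.36 after thinning every barcode to 2000 counts, where each was still first for the other. The median gene had a mean r of -0.05 with MALAT1 and -0.04 with NEAT1.

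The next genes had lower values. For MALAT1 they were the mitochondrial MT-CO1 (0.25) and MT-ND2 (0.23), ATRX, a chromatin remodeller (0.23), and HNRNPU, a nuclear scaffold protein (0.22). For NEAT1 they were MT-ND2 (0.26), MT-ND5 (0.25), MT-CO1 (0.24) and MT-ATP6 (0.22). Of 10 mitochondrially encoded genes compared, 9 had a mean r above 0 with MALAT1 and all 10 with NEAT1. The scaling leaves mitochondrial counts out of the total, and with scaling to all counts 4 of the first 5 genes for MALAT1 and 5 of 5 for NEAT1 stayed the same.

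The lowest for MALAT1 were H2AFZ, a histone variant (-0.25), and TUBA1B, an alpha-tubulin (-0.24). The lowest for NEAT1 were TUBA1B (-0.32), H2AFZ (-0.28) and RAN, the GTPase of nuclear transport (-0.26). Of all 1246 genes, 69.2% had a mean r under 0 with MALAT1 and 71.8% with NEAT1. Of 67 ribosomal protein genes, 58 (86.6%) were under 0 with MALAT1 and 56 (83.6%) with NEAT1. Of 8 mitotic genes with enough counts, 0 were above 0 for either RNA. Of 15 nuclear speckle protein genes, 11 were above 0 with MALAT1 and 9 with NEAT1, and of 10 paraspeckle protein genes 9 and 5. All these values are weak, and all share the barcodes' depth and total.

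**Figure D4:**
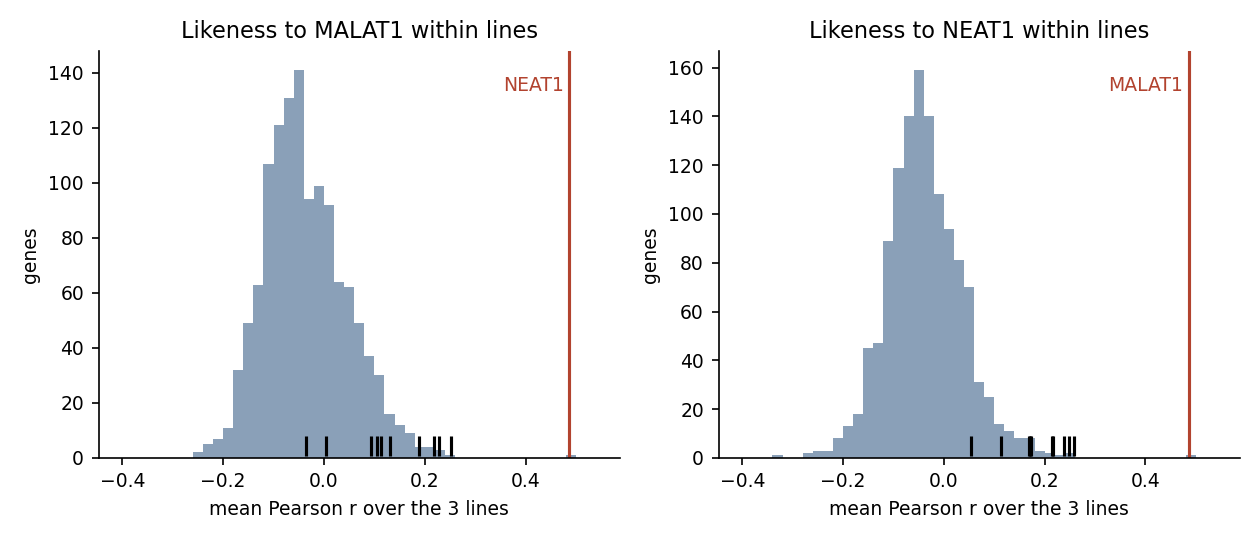
Number of genes (of 1246) by their mean Pearson r with MALAT1 (left) and NEAT1 (right) over the 3 lines. The red line is the other member at 0.49, black ticks are the mitochondrially encoded genes, and the bulk of genes lies near -0.05 and -0.04.

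Ordering the barcodes of at least 2000 counts in each line by MALAT1 share and cutting them into 5 nearly equal sets shows the same in counts. From the lowest to the highest set, MALAT1 ran from 83.1 to 662 per 10000 non-mitochondrial counts in ERBB2-high, from 13.9 to 230 in RARRES2-high and from 20.8 to 227 in FOLR1-high barcodes. NEAT1 ran from 12.9 (12.03 to 13.8) to 49.4 (47.6 to 51.2), from 3.74 (3.32 to 4.21) to 20.2 (18.99 to 21.4), and from 3.06 (2.71 to 3.44) to 12.8 (11.96 to 13.7). It stood at 7.26 and 6.94 in RARRES2-high sets 2 and 3, whose intervals overlap, and otherwise rose at each step. At like MALAT1 levels, NEAT1 stood at 17.4 (16.4 to 18.4) at 198 of MALAT1 in ERBB2-high, 20.2 at 230 in RARRES2-high and, lower, 12.8 at 227 in FOLR1-high barcodes.

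The nuclear-retained mRNAs were also higher in the set richest in MALAT1 than in the poorest, by less. They went from 9.54 to 16.7 per 10000 in ERBB2-high, from 9.44 to 16.0 in RARRES2-high and from 6.04 to 9.17 in FOLR1-high barcodes, where the sets between had no steady order. The nuclear speckle protein genes stood lowest in the lowest set of each line, at 37.0, 25.9 and 27.8, and between 30.2 and 44.0 in all other sets, but did not rise steadily: the highest FOLR1-high set, at 30.2, was below sets 2 to 4. The lowest RARRES2-high set also had the highest sum of the abundant cytoplasmic mRNAs, 922 per 10000 against 784 to 815 in the others, and the lowest FOLR1-high set did too, at 644 against 596 to 631. In ERBB2-high the highest sum, 624 against 576 to 593, was in the set richest in MALAT1. Median depth and mitochondrial share in the lowest RARRES2-high set were 7220 counts and 2.57%, against 5859.5 counts and 3.69% in the highest.

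**Figure D5:**
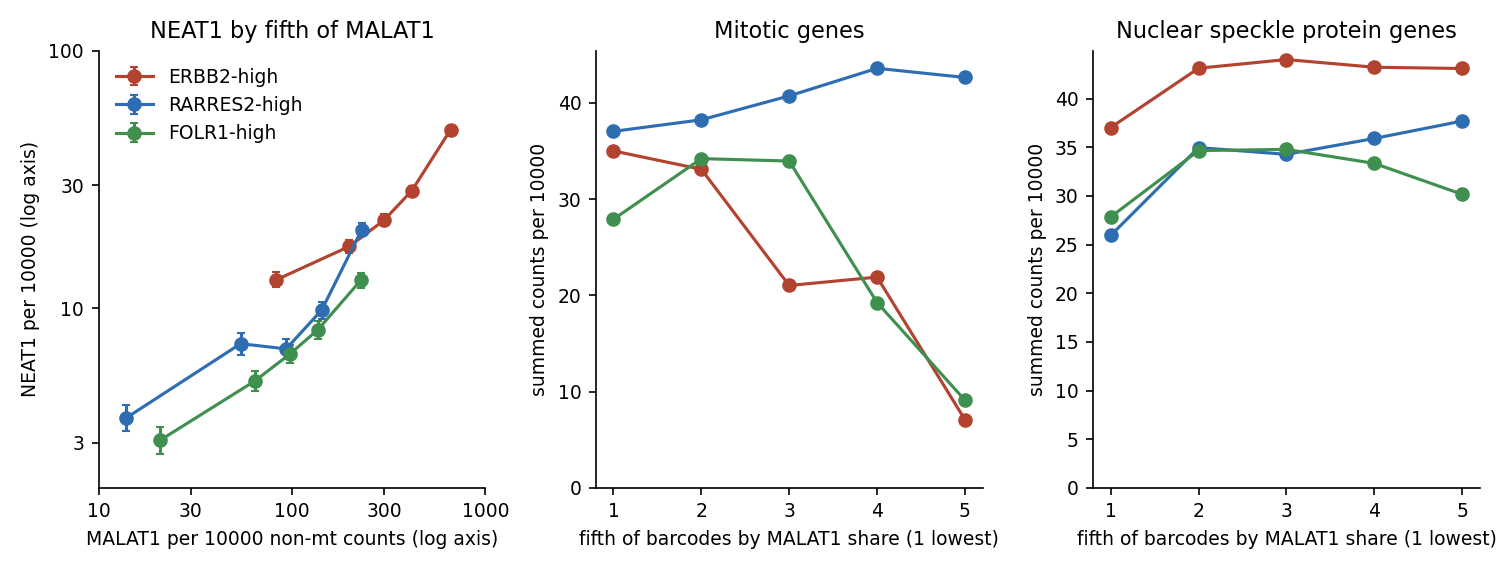
Barcodes of at least 2000 counts of each line in 5 sets by MALAT1 share: NEAT1 against MALAT1 per 10000 non-mitochondrial counts with 95% intervals (left, log axes), and summed counts per 10000 of the 20 mitotic genes (middle) and the 19 nuclear speckle protein genes (right). NEAT1 reaches 49.4, 20.2 and 12.8 in the highest sets, and the mitotic sum falls to 7.09 and 9.11 in ERBB2-high and FOLR1-high but is 42.6 in RARRES2-high barcodes.

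Mitotic genes went opposite ways in different lines. In the sets by MALAT1 share, the 20 mitotic genes summed to 35.0 per 10000 counts outside mitochondrial genes and the members in the lowest and 7.09 in the highest ERBB2-high set, and to 27.9 and 9.11 in FOLR1-high. In RARRES2-high barcodes they stood at 37.0 in the lowest and 42.6 in the highest set. That difference between lines was not tested, because each line is part of 1 library.

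The same was read from the other side. Among the barcodes of at least 2000 counts in each line, the 10% with the largest mitotic share were set against the rest. This mitotic range is not a cell type. In ERBB2-high, RARRES2-high and FOLR1-high, 10, 36 and 21 barcodes lay within 10% of its limit. MALAT1 was lower in the mitotic range in ERBB2-high, where the rest exceeded it 1.44-fold (1.41 to 1.47), and in FOLR1-high, 1.30-fold (1.25 to 1.34). In RARRES2-high it was higher in the mitotic range, the rest being at 0.824-fold (0.798 to 0.851). NEAT1 was lower in the mitotic range 2.93-fold (2.65 to 3.25) in ERBB2-high, at 949 against 2785 CPM of non-mitochondrial counts, and 1.90-fold (1.63 to 2.23) in FOLR1-high, at 376 against 716. In RARRES2-high the NEAT1 ratio was 1.12 (0.990 to 1.26), a difference not detectable at this depth.

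NEAT1 in ERBB2-high was thus the 1 of 6 values past a 2-fold limit, where 4.36% of 7105 ERBB2-high genes were at least 2-fold lower in the mitotic range (4.20% of 6524 in RARRES2-high and 3.98% of 6913 in FOLR1-high). Barcodes of the mitotic range were deeper, with medians of 6672 against 5000 counts in ERBB2-high, 8275 against 6502 in RARRES2-high and 6466 against 5373 in FOLR1-high. The part of depth in these ratios was not tested.

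The FOLR1-high line holds barcodes with more CXCL14 and barcodes with more DEFB1 counts, a chemokine and an antimicrobial peptide. MALAT1 stood at 9872 CPM in 258 barcodes with more CXCL14 and 8990 CPM in 189 with more DEFB1, a ratio of 1.10 (1.07 to 1.13). NEAT1 stood at 532 and 701 CPM, a ratio of 0.759 (0.688 to 0.838). The RNAs went opposite ways here, by amounts that are beyond counting error and small beside the differences between lines, and 318 barcodes with equal counts of both genes were in neither set. The median depth was 4966.5 counts with more CXCL14 and 5973 with more DEFB1, and its part in these ratios was not tested.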

How the data were processed

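The authors deposited a sparse matrix of estimated counts per transcript and cell barcode, not normalised. GRCh38 and Cell Ranger 6.0.1 are listed per the submitters' processing notes; for the long reads, the aligner, the calling of cells and whether molecular identifiers were collapsed are not stated in these sources. Estimated counts were summed per gene entry (whole in 100% of sums within 1e-06) and divided by all counts of a set (CPM) or by those outside mitochondrial genes. Cells are not replicates, so no test was run; intervals are exact Poisson, conditional binomial for ratios, or Clopper-Pearson, at 95%. A set at 0 takes a floor of 3 counts in fold comparisons. Doublets were not called; the line rule drops barcodes with mixed markers. Exons and sequences come from GENCODE release 29; 16 of 17 MALAT1 rows and 1 of 5 NEAT1 rows have the annotated start and end of the transcript the table pairs them with. Scripts used Python 3.11.15, numpy 2.4.6, scipy 1.17.1 and pandas 2.3.3, checked on simulated data. Members, gene lists and rules were chosen with earlier results of these data known. Named list genes are drawn from the 4 with most counts per list and those at least 2-fold apart between lines with at least 200 counts, and likeness names the first 5 and last 3 genes; some genes under this rule are not reported here. SPP1 and ENST00000508832 are named after their values were seen.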

Additional observations from a re-analysis of the deposited data

How the results depend on the processing

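Of 71 alternative values, 36 kept within counting error of the value reported (within 0.05 for Spearman correlations), 34 kept the direction and moved by more than that, and 1 reversed. The log2 ratio of ERBB2-high over FOLR1-high (MALAT1, then NEAT1 where it moved) was 1.77 with at least 3000 counts for MALAT1, 1.72 and 1.88 with 60% for a line call, 1.78 with 90% for MALAT1, 1.69 and 1.90 without mitochondrial counts, 1.39 and 1.61 without mitochondrial and ribosomal protein counts, 1.72 and 2.23 as a median of barcodes, and 1.69 and 2.09 without the deepest 10% of barcodes. Over RARRES2-high, MALAT1 was 1.72 with 60%, 1.71 with 90%, 1.63 without mitochondrial and ribosomal protein counts, 1.74 as a median and 1.596 without the deepest 10% of barcodes, and NEAT1 1.75 as a median. For at least 20% over under 20% mitochondrial counts, the log2 ratio was 1.06 for MALAT1 and 1.49 for NEAT1 as a share of all counts, 2.33 and 3.40 with at least 1000 counts, and, for MALAT1, 2.85 without the barcode with most counts and 2.54 without the barcode that raised the share most; as a median of barcodes both were 0 in the upper class and gave no ratio. The last 4 settings were chosen after seeing the data, as was keeping only barcodes with under 10% mitochondrial counts, with line ratios of 1.69 and 1.76 for MALAT1 and 1.52 and 1.98 for NEAT1 over RARRES2-high and FOLR1-high. The Spearman correlation of NEAT1 with the mitochondrial share was -0.071 after thinning. For under 1000 counts over the rest, MALAT1 was 0.51 and NEAT1 0.0587 as a share of all counts, 1.14 and 0.14 with 500 counts as the limit, and MALAT1 reversed to -4.62 as a median of barcodes, since 169 of 333 shallow barcodes had 0 counts; NEAT1 has a median of 0 there and gives no value. The leading MALAT1 transcript share was 74.5%, 97.0% and 98.6% among whole entries, which rest on 51, 99 and 215 counts. The mean r between the members was 0.36 after thinning to 2000 counts. Leaving out entries of several genes was planned only if a member was in one; none is, so it was not run. No paired analysis was possible because the results come from no test and only 1 library has counts. Depth limits NEAT1 most, with medians of 10, 4 and 2 counts per ERBB2-high, RARRES2-high and FOLR1-high barcode.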
